A study of Mus musculus with 12 samples.

Results

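Muscle takes up long-chain fatty acids and burns them in its mitochondria, and 41 genes of that route, chosen by name, were followed here in the gastrocnemius of mice whose liver overexpresses the clock-output repressor E4BP4. The 41 are sorted by step into 5 uptake genes, 5 activation and thioesterase genes, 5 genes of the carnitine shuttle, 13 of the mitochondrial beta-oxidation cycle, 3 of electron transfer, 3 peroxisomal, 3 of ketone body use, 2 uncoupling proteins and 2 nuclear receptors. All 41 were among the 10475 genes of the deposited table, and all 41 passed the filter on low values. RNA was sequenced from 3 libraries of each of 4 groups: transgenic mice (TG) at ZT12, wild-type mice (WT) at ZT12, TG at ZT0 and WT at ZT0. ZT counts the hours after lights-on, so ZT0 is lights-on and ZT12 lights-off. All the mice were 8 weeks old, of C57BL/6 background, on chow with 12 h of light a day; the transgene is described as liver-specific, and the promoter that drives it is not given in the sources used here. The comparison asks whether a change made in liver alters the oxidation genes of muscle, and how those genes differ between lights-off and lights-on. The labels do not say that each library is a separate mouse, so a p-value measures the spread between these libraries, which may be technical.

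Fatty acids enter the fibre through CD36 and the transport proteins, travel bound to FABP3 and are joined to coenzyme A by the acyl-CoA synthetases. Carnitine palmitoyltransferase 1 moves the acyl group onto carnitine at the mitochondrial surface and is blocked by malonyl-CoA, which malonyl-CoA decarboxylase removes. Inside, each turn of beta-oxidation runs through a dehydrogenase, a hydratase, another dehydrogenase and a thiolase, and electrons leave through the electron transfer flavoprotein. The PPAR receptors sense fatty acids and switch on many of these genes.

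The libraries held 13126327 to 20157289 reads over the listed genes at ZT12 and 9213368 to 13149150 at ZT0, as recovered from TPM, a read share corrected for transcript length, and that length. E4BP4 itself (Nfil3) averaged 13.5 ± 6.65 TPM in TG and 11.8 ± 3.79 in WT muscle at ZT12, and 16.0 ± 3.72 in TG and 17.2 ± 1.42 in WT muscle at ZT0 (SD, n = 3 each), which does not check a transgene driven in liver. All 8 skeletal muscle markers were present, 0 of 3 brown adipocyte markers and 1 of 6 hepatocyte markers were in the table. In a bulk sample, fewer cells of a type and less RNA per cell cannot be told apart. Against the other libraries, WT ZT0 replicate 2 held the highest value of 53.8% of listed genes and TG ZT12 replicate 1 the lowest of 50.8%. The 5 red cell markers, 4 globin genes and Alas2, summed to 2959 and 4565 TPM in TG ZT12 replicates 1 and 2 and 1526 and 4257 TPM in WT ZT12 replicates 1 and 2, against 145 and 176 TPM in the ZT12 replicate 3 libraries and 86.2 to 163 TPM at ZT0.

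The promoters below are shown because Mlycd had the smallest p between times and Ucp3 the largest difference of the 41 (neither called), and because Hadhb shares its upstream bases with its partner gene. They are the 250 bases before the start site in RefSeq on GRCm38.p6, 5′ to 3′ on the gene's strand, which is the plus strand for all 3. RefSeq promoters were matched for 34 of the 41 genes; Acot13, Cpt1b, Crat, Decr1, Acaa2, Hsd17b4 and Acat1 were not. The stretches are chr8:119394644-119394893 for Mlycd, chr7:100472741-100472990 for Ucp3 and chr5:30155003-30155252 for Hadhb. Capitals mark CCAAT on either strand in Mlycd and AGGTCA in Ucp3.
Mlycd: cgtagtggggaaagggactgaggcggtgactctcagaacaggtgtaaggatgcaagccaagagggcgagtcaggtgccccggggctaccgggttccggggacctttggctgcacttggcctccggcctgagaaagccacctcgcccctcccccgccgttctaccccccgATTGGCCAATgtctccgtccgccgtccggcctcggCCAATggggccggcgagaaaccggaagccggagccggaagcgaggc
Ucp3: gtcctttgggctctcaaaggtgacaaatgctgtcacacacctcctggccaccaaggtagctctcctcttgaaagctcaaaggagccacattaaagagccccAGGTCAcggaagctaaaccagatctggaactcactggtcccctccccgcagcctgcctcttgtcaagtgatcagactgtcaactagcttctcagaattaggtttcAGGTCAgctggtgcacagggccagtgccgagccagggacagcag
Hadhb: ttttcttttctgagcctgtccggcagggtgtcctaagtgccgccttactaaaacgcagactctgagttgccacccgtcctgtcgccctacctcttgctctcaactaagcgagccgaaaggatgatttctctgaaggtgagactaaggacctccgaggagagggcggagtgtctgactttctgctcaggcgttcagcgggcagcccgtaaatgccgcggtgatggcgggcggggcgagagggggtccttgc
CCAAT, a motif chosen after the sequences were seen, starts 81, 76 and 46 bases before the start site of Mlycd; the first is on the minus strand, and it abuts the second. It was found in 17 of the 34 promoters and in 37.5% of the 27025 genes of the table. AGGTCA, the core letters bound by many nuclear receptors, starts 149 and 44 bases before the start site of Ucp3. It was found in 7 of the 34 and in 15.8% of all genes. The direct repeat of AGGTCA with 1 base between, which PPAR receptors bind, was in 0 of the 34 and in 0.0407% of all genes. Only its exact letters were searched, and just 11 genes of the table held them. A count of 0 among 34 therefore cannot show that these genes lack PPAR sites. The D-box TTANGTAA, the class of site that E4BP4 binds, was in 1 of the 34 genes (in a promoter of Slc27a1) and in 2.44% of all genes, and the E-box CACGTG also in 1, a promoter of Slc27a1, against 6.86% of all genes. Both strands were searched. Such matches describe letters in a window and not bound sites. Hadha and Hadhb, whose products form the trifunctional protein, start back to back on chromosome 5 with 272 bases between their start sites, at 30154980 and 30155253.

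By level, most genes of the route stood high in this muscle. The median of the 41 mean levels was 40.4 TPM, against 6.59 TPM over all listed genes, and 33 of the 41 lay above that listed median. Electron transfer led, with the flavoprotein beta subunit Etfb at a mean of 154 TPM, followed by the carnitine acetyltransferase Crat at 114 TPM, the very long-chain dehydrogenase Acadvl at 104 TPM and the medium-chain dehydrogenase Acadm at 103 TPM. At the low end stood the receptor Ppara at 1.78 TPM, the liver form of carnitine palmitoyltransferase 1, Cpt1a, at 1.90 TPM and the peroxisomal bifunctional enzyme Ehhadh at 2.00 TPM. The muscle form Cpt1b exceeded Cpt1a by 20.9 to 66.6 times in the 12 libraries on the TPM scale, which corrects for length. Of the mitochondrial cycle, the 13 genes ran between 16.1 TPM (Hadhb) and 104 TPM (Acadvl), and the 3 peroxisomal genes between 2.00 and 18.4 TPM. Hadha stood at 2.73 to 4.94 times the TPM of Hadhb in every library although the proteins pair. Counting was without strand, and 45.0% of the exon bases of Acadvl are shared with Dvl2 on the other strand. On the same strand, 69.1% of those of Etfb are shared with Gm45233 and 94.8% of those of Cpt1b with Gm44502. These 3 levels are therefore uncertain. Acot2 and Acaa1a have close copies and are also uncertain.

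**Figure D1:**
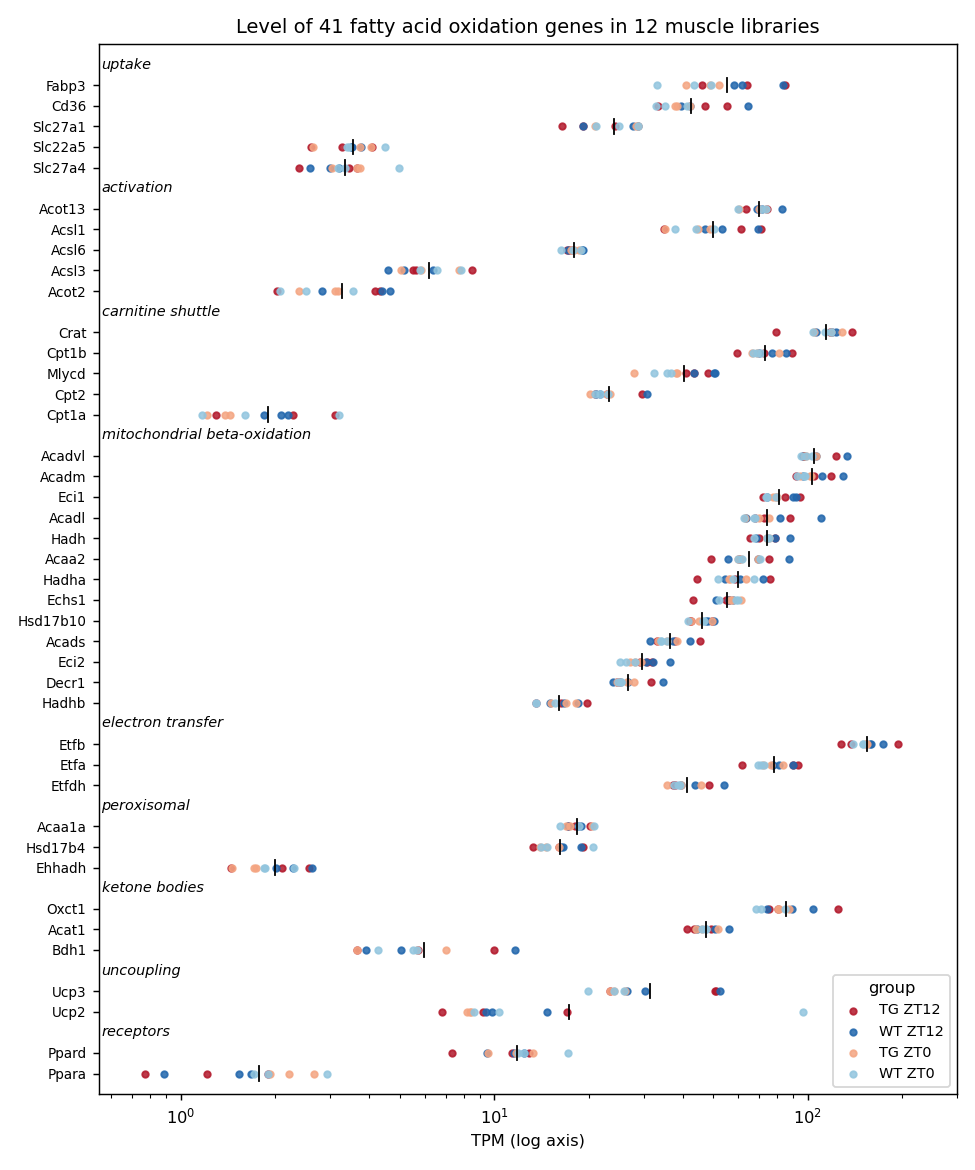
TPM of each of the 41 genes (log axis) in 12 libraries, in blocks by step; points are libraries coloured by group and the black tick is the mean of the 12. Etfb lies highest at a mean of 154 TPM and Ppara lowest at 1.78 TPM, and the one Ucp2 point at 96.3 TPM is WT ZT0 replicate 2.

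The spread within groups was modest for most of these genes. The median within-group SD of log2(TPM + 1) was 0.20 over the 41, against 0.24 over all tested genes, and 14 of the 41 were above that figure. Ucp2, an uncoupling protein found in many cell types, was the exception. It had 6.81, 17.1 and 9.25 TPM in TG at ZT12, 9.85, 14.8 and 9.45 TPM in WT at ZT12, 8.19, 8.37 and 8.45 TPM in TG at ZT0, and 10.3, 96.3 and 8.64 TPM in WT at ZT0. A single WT library at ZT0 stood far above the other 11. In that library the summed markers of adipocytes (379 TPM), endothelium (80.8 TPM) and macrophages (27.6 TPM) were also the highest of the 12. The others held 57.8 to 363 TPM, 31.5 to 63.6 TPM and 7.54 to 23.9 TPM. Single markers differed: Retn, Emcn, Adgre1, Mrc1 and Cd163 each peaked in another library. By mean log2(TPM + 1) the macrophage markers stood at 0.485 above their 12-library mean there and at 0.493 in TG ZT12 replicate 2. The same library held the highest value of 53.8% of all listed genes. The part of these cell types in the Ucp2 level was not tested. Ucp3, its muscle relative, was 25.96 TPM in that library, level with other ZT0 libraries.

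Between genotypes, the oxidation genes of muscle showed no difference that passed the test. Of the 41, 0 were called at ZT0, 0 at ZT12 and 0 over both times (limma, Benjamini-Hochberg adjusted p under 0.05 over 10415 tested genes), and the background was 0% of tested genes in each of the 3 comparisons. At an unadjusted p under 0.05 the counts were again 0, 0 and 0 of 41, against 1.12%, 0.951% and 1.59% of tested genes. The voom form of limma on recovered reads called 0, 0 and 0. At ZT12 the genotypes were apart for 0 of the 41 in either direction, against 0.528% of tested genes higher and 4.26% lower in TG, and over both times for 0, against 0% higher and 0.0384% lower. Over both times the 95% interval of TG minus WT lay within ±0.5 on the log2(TPM + 1) scale for 37 of the 41 and within ±1 for 40, Ucp2 being the exception. The median distance between estimate and interval bound was 0.24. Single times were less precise: the interval lay within ±0.5 for 27 of the 41 at ZT0 and for 28 at ZT12. There the median distance was 0.36.

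The small differences in direction depended on scaling and on single libraries. At ZT0, 28 of the 41 were higher in TG and 13 lower (median difference 0.04), whereas 23.5% of all tested genes were higher (median -0.10). At ZT12, 8 were higher and 33 lower (median -0.09), against 23.4% of all tested genes higher (median -0.07). Over both times 13 were higher and 28 lower (median -0.03), against 16.2% higher among all tested genes (median -0.09). After median-of-ratios scaling, which brings the median of all genes close to 0, 33, 19 and 33 of the 41 were higher in TG in these comparisons, against 49.3%, 50.6% and 49.1% of all tested genes. At ZT0 the 28 higher became 18 without TG ZT0 replicate 1, against 20.1% of all tested genes. They became 34 without WT ZT0 replicate 2, where the share of all tested genes rose to 59.9% (median 0.02). Without any other library they lay between 22 and 31, against 17.2% to 38.3%. At ZT12 the 8 higher became 21 without TG ZT12 replicate 1 and 22 without WT ZT12 replicate 2, against 59.7% and 34.2%. They became 2 without TG ZT12 replicate 2 and 5 without WT ZT12 replicate 3, against 15.2% and 20.2%. Without any other library they were 12 or fewer, against 23.4% to 25.0%. Over both times the 13 became 27 without WT ZT12 replicate 2, against 20.8% of all tested genes. They lay between 8 and 19 when any other library was left out, against 12.7% to 33.9%.

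In uptake, the transport protein Slc27a1 had the smallest p among the 41 at ZT12. It had 16.5, 24.3 and 19.2 TPM in TG and 27.6, 28.8 and 19.2 TPM in WT at ZT12, and 28.8, 28.4 and 21.0 TPM in TG and 21.1, 28.8 and 25.0 TPM in WT at ZT0. The genotypes overlapped at both times. The difference at ZT12 was -0.31 with a standard error of 0.19 and was not called. The carnitine transporter Slc22a5 and Slc27a4 stood between 2.38 and 4.98 TPM in all libraries. Cd36, the main fatty acid carrier of the fibre membrane, spanned 33.4 to 64.7 TPM at ZT12 and 32.7 to 42.0 TPM at ZT0, over both genotypes, so the times overlapped.

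In activation, the synthetase Acsl3 had 5.502, 8.53 and 5.65 TPM in TG and 4.58, 5.17 and 6.39 TPM in WT at ZT12. At ZT0 it had 7.74, 5.05 and 5.86 TPM in TG and 7.82, 5.80 and 6.55 TPM in WT. The groups overlapped at both times. The thioesterase Acot13, the highest gene of this step, had 74.2, 70.1 and 63.5 TPM in TG and 71.7, 82.5 and 68.7 TPM in WT at ZT12, and 73.3, 60.5 and 70.0 TPM in TG and 73.6, 59.8 and 71.0 TPM in WT at ZT0. Its libraries overlapped in every pair of groups. The synthetase Acsl6 ran between 16.4 and 19.2 TPM in 12 libraries, with the smallest within-group SD of log2(TPM + 1) of the 41, 0.07. The long-chain synthetase Acsl1 spanned 34.7 to 70.98 TPM at ZT12 and 35.2 to 50.2 TPM at ZT0, and the mitochondrial thioesterase Acot2 2.03 to 4.65 TPM at ZT12 and 2.08 to 3.56 TPM at ZT0.

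In the shuttle, Crat had 79.0, 139 and 118 TPM in TG and 123, 120 and 106 TPM in WT at ZT12, and 128, 118 and 105 TPM in TG and 104, 119 and 114 TPM in WT at ZT0. TG at ZT12 held both its lowest and its highest library. Cpt1a had 1.30, 2.28 and 3.11 TPM in TG and 2.09, 2.20 and 1.84 TPM in WT at ZT12, and 1.22, 1.44 and 1.39 TPM in TG and 1.61, 3.20 and 1.17 TPM in WT at ZT0. The genotypes overlapped at both times, and 1 high WT library set the WT mean at ZT0. Cpt1b spanned 59.7 to 89.2 TPM at ZT12 and 66.2 to 81.1 TPM at ZT0. Cpt2, which hands the acyl group back to coenzyme A inside, spanned 21.02 to 30.8 TPM at ZT12 and 20.3 to 23.5 TPM at ZT0. For both the times overlapped.

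In the mitochondrial cycle, Acadvl had 97.3, 123 and 96.3 TPM in TG and 106, 133 and 96.8 TPM in WT at ZT12, and 107, 98.9 and 97.5 TPM in TG and 98.3, 103 and 94.9 TPM in WT at ZT0. Its replicate 2 libraries at ZT12 were the 2 highest. Hadhb had 16.3, 19.7 and 13.6 TPM in TG and 15.0, 18.6 and 16.7 TPM in WT at ZT12, and 16.9, 15.1 and 18.2 TPM in TG and 13.6, 13.6 and 15.7 TPM in WT at ZT0. The ZT0 groups overlapped through TG replicate 2, and the difference there was 0.22 (standard error 0.15). The hydroxyacyl-CoA dehydrogenase Hadh had 69.7, 78.5 and 65.5 TPM in TG and 78.6, 87.9 and 68.1 TPM in WT at ZT12, and 75.4, 74.0 and 73.9 TPM in TG and 67.3, 73.9 and 75.1 TPM in WT at ZT0. Hsd17b10, a dehydrogenase of the same reaction, had 49.7, 42.1 and 42.5 TPM in TG and 50.4, 47.3 and 48.2 TPM in WT at ZT12, and 42.4, 49.4 and 45.1 TPM in TG and 41.6, 46.5 and 46.4 TPM in WT at ZT0. Both pairs of groups overlapped. Among the other chain-length dehydrogenases, Acadl (long-chain) spanned 63.5 to 110 TPM at ZT12 and 62.7 to 75.4 TPM at ZT0, Acadm 91.5 to 129 TPM at ZT12 and 92.2 to 102 TPM at ZT0, and Acads (short-chain) 31.3 to 45.5 TPM at ZT12 and 33.3 to 38.1 TPM at ZT0. The isomerase Eci1 spanned 72.1 to 94.6 TPM at ZT12 and 73.3 to 80.03 TPM at ZT0, the hydratase Echs1 42.95 to 57.8 TPM at ZT12 and 52.1 to 61.3 TPM at ZT0, and the reductase Decr1 23.8 to 34.4 TPM at ZT12 and 24.6 to 27.99 TPM at ZT0. The times overlapped for all 6. Hadha spanned 44.4 to 76.0 TPM at ZT12 and 51.7 to 67.1 TPM at ZT0, and the thiolase Acaa2 48.98 to 87.3 TPM at ZT12 and 59.8 to 70.5 TPM at ZT0, also with overlap.

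In electron transfer, Etfb had 194, 137 and 128 TPM in TG and 159, 173 and 158 TPM in WT at ZT12, and 154, 154 and 154 TPM in TG and 150, 140 and 150 TPM in WT at ZT0. The ZT0 groups did not overlap, with TG the higher, as for 1.40% of all tested genes, and at ZT12 they overlapped. The ZT0 difference was 0.07 (standard error 0.13). The alpha subunit Etfa and the flavoprotein dehydrogenase Etfdh, which passes the electrons on to ubiquinone, overlapped between genotypes at both times.

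The peroxisomal Ehhadh had 1.45, 2.56 and 2.10 TPM in TG and 2.02, 2.62 and 2.29 TPM in WT at ZT12, and 1.74, 1.72 and 1.45 TPM in TG and 1.85, 2.29 and 1.86 TPM in WT at ZT0. At ZT0 all TG libraries were below all WT libraries; with Ucp2 it was 1 of 2 such genes of the 41, against 3.22% of tested genes. The difference was -0.18 (standard error 0.17) on 62 to 167 reads a library over the series. Hsd17b4, the other bifunctional enzyme, had 13.3, 19.2 and 16.1 TPM in TG and 16.6, 19.0 and 16.3 TPM in WT at ZT12, and 16.1, 14.7 and 14.0 TPM in TG and 14.8, 20.7 and 14.1 TPM in WT at ZT0. The thiolase Acaa1a had 18.1, 20.3 and 17.2 TPM in TG and 17.2, 18.9 and 18.6 TPM in WT at ZT12, and 17.4, 20.5 and 16.9 TPM in TG and 18.7, 20.9 and 16.2 TPM in WT at ZT0. Both overlapped between genotypes at each time.

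For ketone bodies, Oxct1, the transferase that starts their use, had 75.4, 125 and 80.5 TPM in TG and 89.0, 104 and 74.1 TPM in WT at ZT12, and 87.0, 80.4 and 80.9 TPM in TG and 68.1, 84.9 and 71.1 TPM in WT at ZT0. Its highest libraries were replicate 2 of both genotypes at ZT12. The thiolase Acat1 had 43.4, 49.2 and 41.3 TPM in TG and 50.5, 56.0 and 44.4 TPM in WT at ZT12, and 51.7, 46.1 and 43.8 TPM in TG and 46.0, 47.4 and 47.4 TPM in WT at ZT0. The groups overlapped. The dehydrogenase Bdh1 was 10.001 TPM in TG and 11.6 TPM in WT in the ZT12 replicate 2 libraries, and 3.65 to 6.999 TPM in the other 10.

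Of the receptors, Ppard had 7.35, 12.9 and 11.4 TPM in TG and 12.4, 11.6 and 9.46 TPM in WT at ZT12, and 13.3, 11.8 and 9.57 TPM in TG and 11.9, 17.3 and 12.5 TPM in WT at ZT0. Its lowest library was TG ZT12 replicate 1 and its highest WT ZT0 replicate 2, the same libraries that stood apart over all genes. In the authors' deposited table, the smallest p of the 41 was 0.356 at ZT0 (Oxct1) and 0.507 at ZT12 (Slc27a1).

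**Figure D2:**
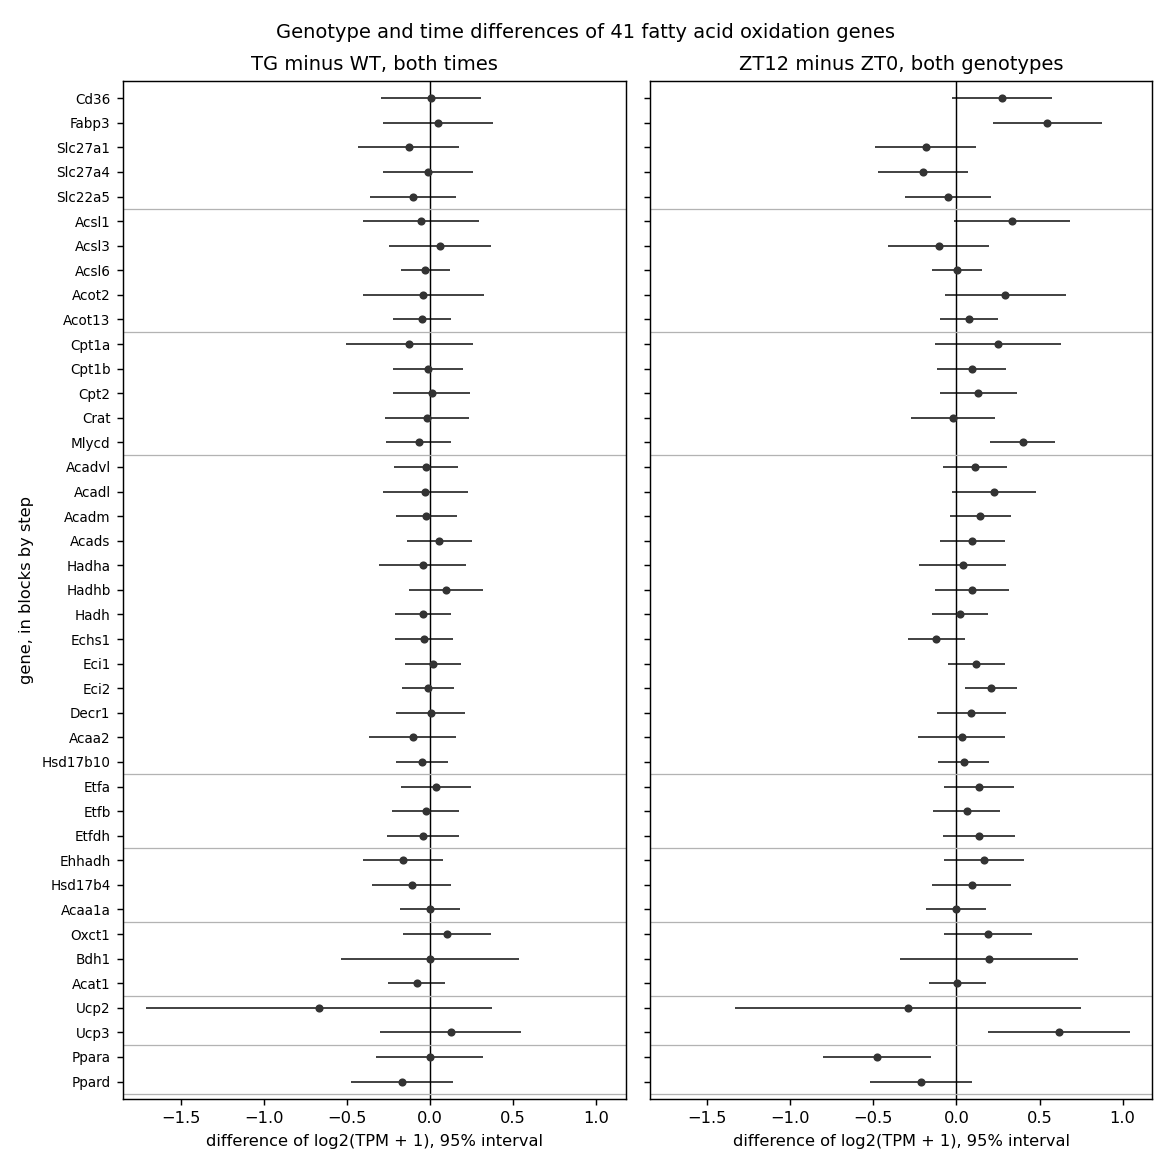
Difference of log2(TPM + 1) with its 95% interval for each of the 41 genes, TG minus WT over both times on the left and ZT12 minus ZT0 over both genotypes on the right, on 1 shared scale; grey lines part the steps. On the left every interval includes 0, and on the right those of Fabp3, Mlycd, Eci2, Ucp3 and Ppara do not, with 0 genes called after adjustment.

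Between times, the genes that stood out encode malonyl-CoA decarboxylase, a binding protein, an isomerase and an uncoupling protein, higher at ZT12. The receptor Ppara also stood out, lower at ZT12. None passed the adjusted test. Over both genotypes 0 of the 41 were called, against 1.02% of tested genes (106, of which 42 higher and 64 lower). At an unadjusted p under 0.05 there were 5 of 41, against 7.35% of tested genes, and voom called 2 of 41 (Mlycd and Ppara), against 2.08%. Within TG 0 of 41 were called, against 0.154%, and 3 had an unadjusted p under 0.05, against 3.53%. Within WT the counts were 0, against 0.115%, and 3, against 4.65%. Voom called 0 of 41 within either genotype, against 0.269% of tested genes in TG and 0.538% in WT. By direction, 31 of the 41 were higher at ZT12 (median 0.09), against 40.6% of all tested genes (median -0.03). Within TG 26 of the 41 were higher at ZT12, against 46.7%, and within WT 33, against 39.8%. Without TG ZT12 replicate 2 the count within TG was 14 higher and 27 lower (median -0.04), so that library turned the majority. The share of all tested genes that were higher also fell there, to 28.6% (median -0.10). Without WT ZT12 replicate 2 the count within WT was 27 higher, against 34.6% of all tested genes. Over both genotypes the 31 stayed between 26 and 33 when any 1 library was left out, against 30.4% to 60.5%.

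Mlycd (chromosome 8, 119394892 to 119411088 on mm10), malonyl-CoA decarboxylase, had the smallest p. It had 40.9, 48.0 and 43.3 TPM in TG and 50.1, 50.5 and 43.4 TPM in WT at ZT12. At ZT0 it had 38.0, 38.3 and 27.9 TPM in TG and 35.6, 36.5 and 32.2 TPM in WT. All 6 libraries at ZT12 were above all 6 at ZT0, which held for no other of the 41 and for 0.538% of tested genes; the reverse order held for 0 of the 41 and for 0.989%. The difference was 0.40 with a standard error of 0.09 and missed the threshold (limma adjusted p = 0.0608). It passed with voom on recovered reads (limma-voom adjusted p = 0.0117). Over all alternatives the adjusted p ranged between 0.0117 and 0.999, the highest with the red cell level as a covariate.

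Fabp3, the fatty acid binding protein of muscle and heart, had 84.3, 64.0 and 46.0 TPM in TG and 58.1, 83.5 and 61.8 TPM in WT at ZT12. At ZT0 it had 52.2, 40.96 and 48.6 TPM in TG and 49.3, 33.0 and 43.2 TPM in WT. The times did not overlap in WT, and in TG the lowest ZT12 library lay within the ZT0 range. The difference was 0.55 (standard error 0.15, limma adjusted p = 0.154), and leaving out TG ZT12 replicate 3 gave a call (adjusted p = 0.0345, in a range of 0.0345 to 0.999 over the alternatives).

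Ucp3, the uncoupling protein of skeletal muscle, had 23.4, 50.7 and 51.0 TPM in TG and 26.6, 52.6 and 30.3 TPM in WT at ZT12. At ZT0 it had 26.1, 24.2 and 23.4 TPM in TG and 24.04, 25.96 and 19.8 TPM in WT. At ZT12, TG replicates 2 and 3 and WT replicate 2 were well above every ZT0 library, and TG replicate 1 lay within the ZT0 range. The difference was 0.62 (standard error 0.20, limma adjusted p = 0.259). It was called without that library (0.77, adjusted p = 0.0330) and after median-of-ratios scaling (0.65, adjusted p = 0.0486), in a range of 0.0127 to 0.999 over the alternatives.

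Eci2, an isomerase for unsaturated chains, had 29.1, 31.9 and 30.6 TPM in TG and 30.5, 36.4 and 32.2 TPM in WT at ZT12, and 28.1, 29.4 and 27.1 TPM in TG and 25.3, 26.3 and 28.1 TPM in WT at ZT0. The times were apart in WT and overlapped in TG, where ZT0 replicate 2 lay above ZT12 replicate 1. The difference was 0.21 (standard error 0.07, limma adjusted p = 0.351).

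Ppara had 0.771, 1.90 and 1.22 TPM in TG and 1.54, 1.67 and 0.885 TPM in WT at ZT12. At ZT0 it had 2.66, 2.22 and 1.93 TPM in TG and 1.72, 2.94 and 1.90 TPM in WT. Within each genotype every ZT12 library was below every ZT0 library, while across genotypes TG ZT12 replicate 2 lay above the lowest WT library of ZT0. The difference was -0.48 (standard error 0.15, limma adjusted p = 0.234). It was -0.79 with voom on its 101 to 298 reads a library, which called it (adjusted p = 0.0472, in a range of 0.0410 to 0.804 over the alternatives).

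**Figure D3:**
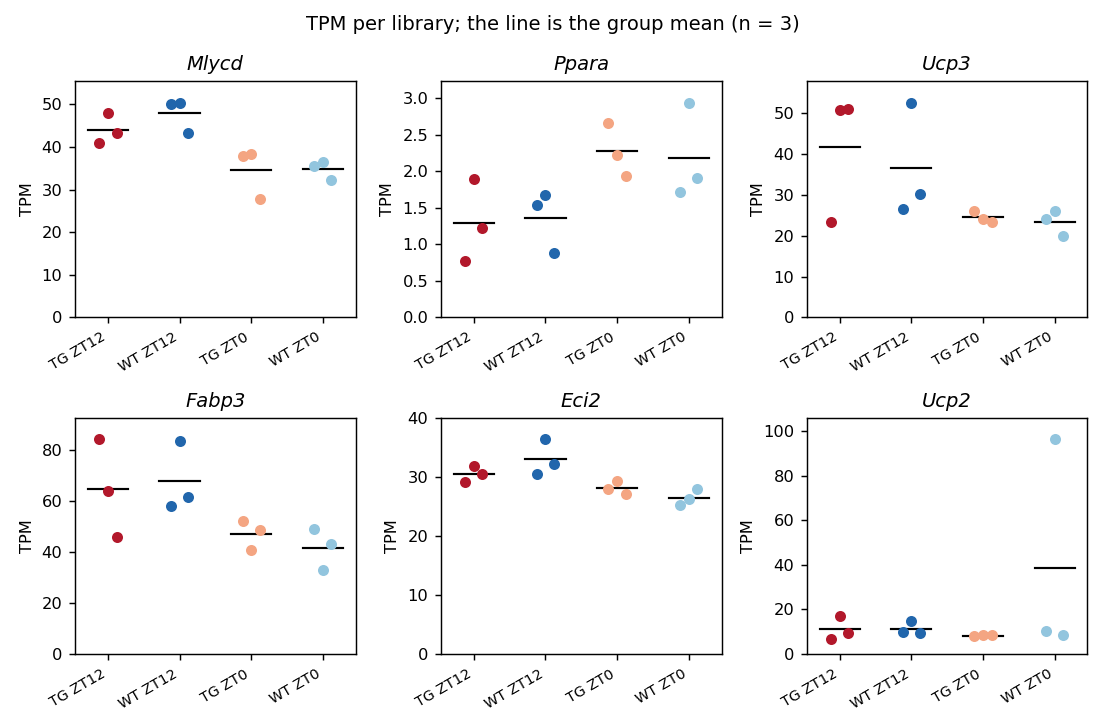
TPM per library of 6 genes in the 4 groups, with the group mean as a line (n = 3); vertical scales differ. Mlycd at ZT12 (40.9 to 50.5 TPM) lies above Mlycd at ZT0 (27.9 to 38.3 TPM) in both genotypes, and Ucp2 is set apart by 1 WT library at 96.3 TPM.

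In WT, 8 of the 41 were higher at ZT12 with no overlap (Fabp3, Mlycd, Eci2, Hsd17b10, Etfa, Etfb, Etfdh and Ucp3), against 5.62% of tested genes, and Ppara was lower, against 5.20%. In TG, Mlycd was higher with no overlap, against 3.21%, and Echs1 and Ppara were lower, against 3.87%. The WT and TG time differences were tested against each other as an interaction: 0 of the 41 were called, against 0% of tested genes, 0 by voom, and 0 had an unadjusted p under 0.05, against 0.663%. The smallest p in that test belonged to Slc27a1, whose time difference was -0.37 in TG and 0.00 in WT (interaction -0.37, standard error 0.28).

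Part of the time pattern sat in particular libraries. Of the 41, 17 were highest in WT ZT12 replicate 2, against 5.26% of listed genes, and 8 in TG ZT12 replicate 2, against 15.7%. For the 2 libraries together the count was 25, against 21.0%. The mean level of the 41 was 0.24 above its 12-library mean in TG ZT12 replicate 2 and 0.27 above it in WT ZT12 replicate 2. These are also the libraries with the most red cell transcripts. TG ZT12 replicate 1 also stood high in red cell markers, 2.71 above their 12-library mean. There the 41 were at their lowest of the 12 libraries (-0.15), and all tested genes stood at -0.28. Red cell level and time were confounded in part. The red cell level lay at -1.97 to -1.21 in the ZT0 libraries. At ZT12 it lay at 1.89 to 3.52 in replicates 1 and 2, and at -1.33 and -1.19 in TG and WT replicate 3. With the red cell level as a covariate, chosen after the data were seen, 12 of the 41 were higher at ZT12 (median -0.07). The share of all tested genes was 38.8% (median -0.04). Of the 41, 0 were called, against 24 of 10415 tested genes. The time difference was then 0.22 for Fabp3, 0.16 for Eci2, 0.32 for Mlycd, 0.60 for Ucp3 and -0.64 for Ppara, against 0.55, 0.21, 0.40, 0.62 and -0.48 without it. This fit cannot part red cell level from time, and the part of red cell content in these differences was not tested further. Slow fibre genes lay higher at ZT12 for 10 of 10 (median 0.39) and respiration genes for 21 of 28 (median 0.02), against 40.6% of all tested genes. In both lists 0 were called, against 1.02%. The slow fibre level ran between -1.43 in WT ZT0 replicate 3 and 0.86 in WT ZT12 replicate 3. It was 0.55 in TG ZT12 replicate 2 and -0.17 in WT ZT12 replicate 2. The part of fibre type in the result was not tested.

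**Figure D4:**
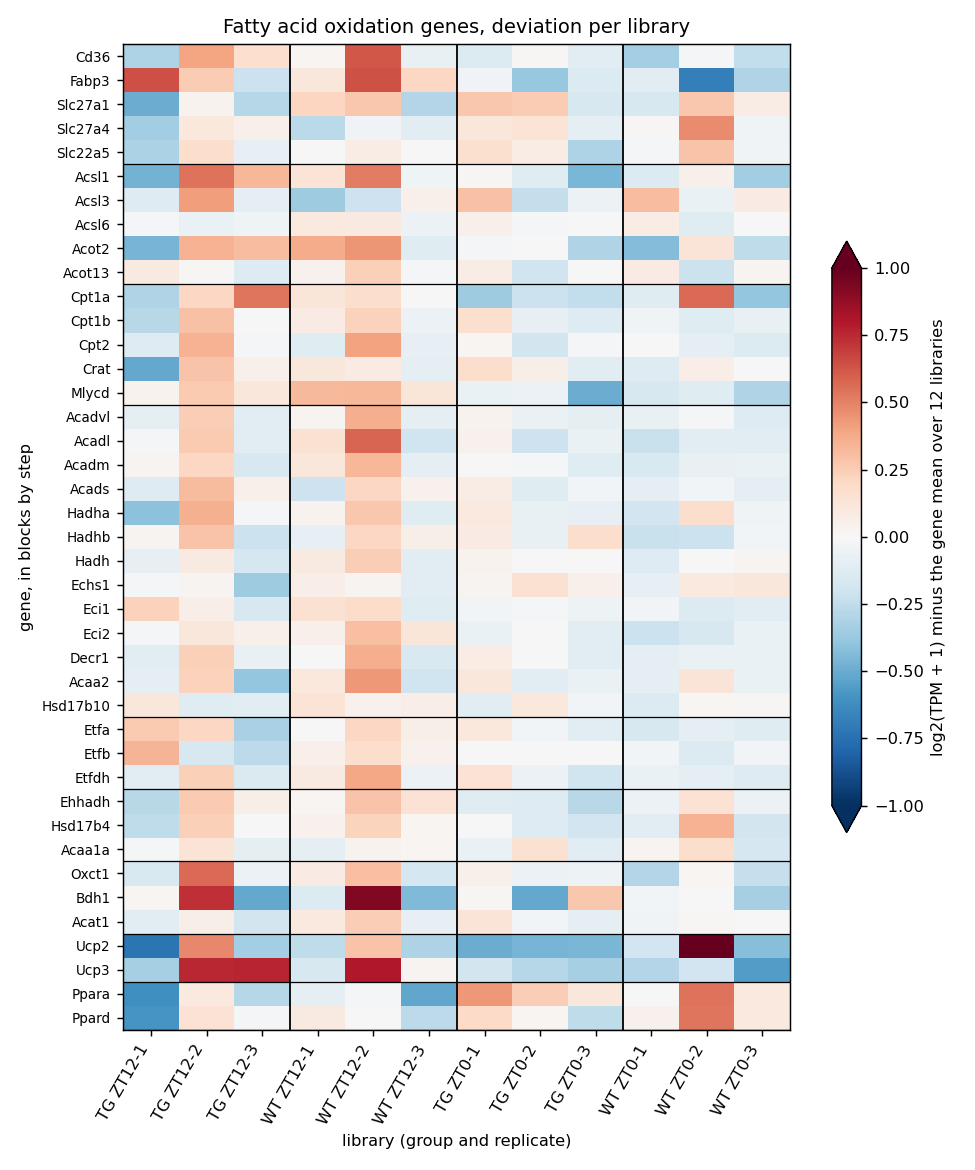
Deviation of log2(TPM + 1) from each gene's 12-library mean, 41 genes by 12 libraries, in blocks by step; red is above and blue below the mean, and values beyond ±1 take the end colour. The columns of TG ZT12 replicate 2 and WT ZT12 replicate 2 are red for most genes. They hold the highest value of 8 and 17 genes, against 15.7% and 5.26% of all listed genes.

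**Figure D5:**
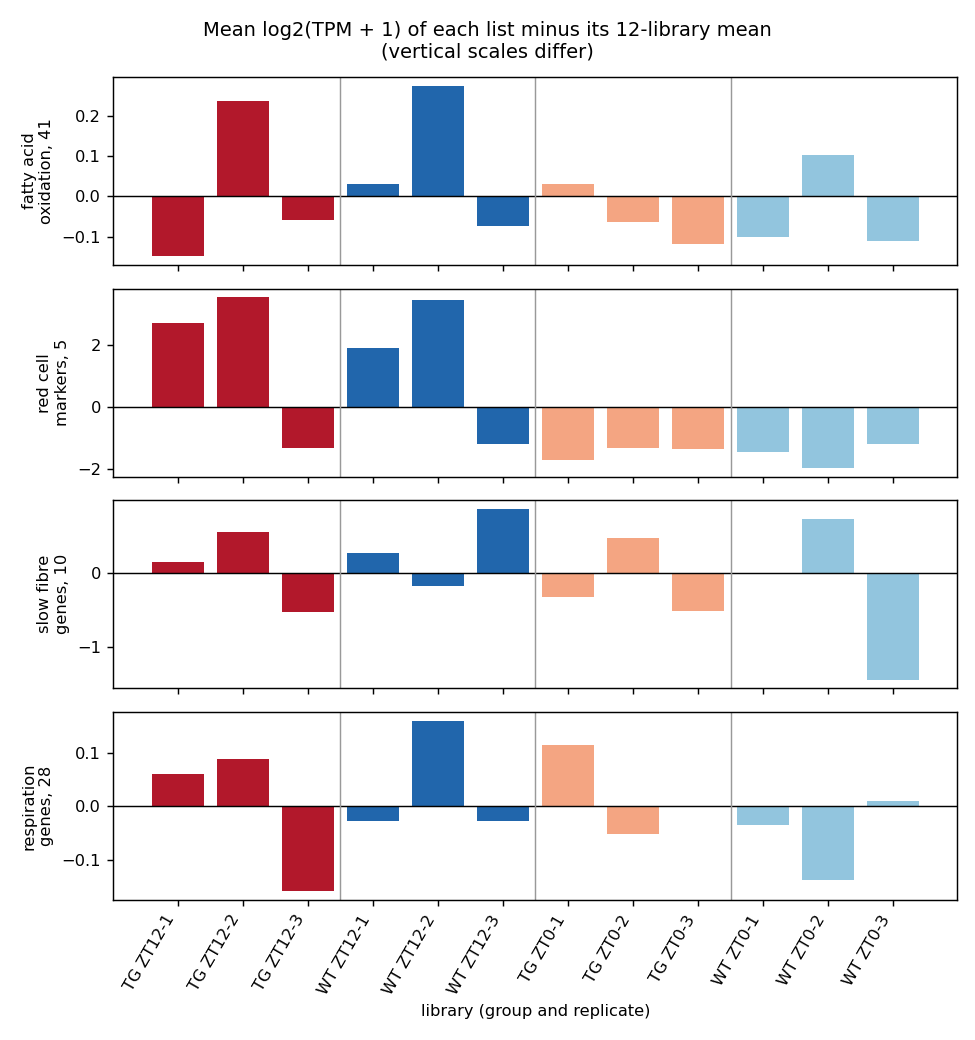
Mean log2(TPM + 1) of 4 gene lists in each library, minus the list's 12-library mean, with bars coloured by group and a scale of its own in each panel. The 41 oxidation genes reach 0.24 and 0.27 in replicate 2 of TG and WT at ZT12, where red cell markers are also highest at 3.52 and 3.43. In TG ZT12 replicate 1 the red cell markers stand at 2.71 and the 41 genes at -0.15, their lowest.

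Of 61 further genes of the pathway (lipid stores, other mitochondrial and peroxisomal enzymes, and control), 54 were in the table. Over both genotypes 2 of the 54 rose at ZT12 and 0 fell, against 1.02% of tested genes called, and 0 were called between genotypes at either time. Voom called 5 of the 54, against 2.08% of tested genes: besides those 2, the coactivator Ppargc1b (0.46, limma-voom adjusted p = 0.0460) was higher at ZT12, and the lipid droplet protein Plin4 (-0.61, 0.0151) and the triglyceride synthesis enzyme Dgat2 (-0.85, 0.0399) were lower. In the fit on log2(TPM + 1) their differences were 0.32, -0.59 and -0.79. Both genes that rose in the fit on log2(TPM + 1) belong to control. Pdk4, the kinase that holds back glucose oxidation, averaged 105 ± 28.9 TPM in TG and 109 ± 27.8 TPM in WT at ZT12, and 28.1 ± 5.46 TPM in TG and 29.7 ± 9.38 TPM in WT at ZT0 (SD, n = 3 each). Its time difference was 1.85 (standard error 0.18, limma adjusted p = 0.000165). Nr1d1, the clock repressor REV-ERB alpha, averaged 63.4 ± 15.4 TPM in TG and 73.5 ± 9.50 TPM in WT at ZT12, and 10.8 ± 0.725 TPM in TG and 12.9 ± 0.933 TPM in WT at ZT0, a difference of 2.42 (standard error 0.11, limma adjusted p = 8.12e-08). All ZT12 libraries were above all ZT0 libraries for both genes. The receptor partner Rxrg differed by 0.34 (adjusted p = 0.0552), the lipoprotein lipase anchor Gpihbp1 by -0.41 (0.0971) and the lipid droplet protein Plin5 by 0.69 (0.109), none of them called. Within TG and within WT the same 2 genes were called, against 0.154% and 0.115% of tested genes. Between genotypes, the smallest p of these genes at ZT0 and over both times belonged to Esrra, a receptor that controls mitochondrial genes, at 28.6, 35.6 and 51.2 TPM in TG and 60.7, 62.7 and 27.2 TPM in WT at ZT12, and 37.2, 31.7 and 28.7 TPM in TG and 62.9, 56.9 and 61.9 TPM in WT at ZT0. The groups were apart at ZT0 alone, where the difference was -0.88 (standard error 0.28, limma adjusted p = 0.998). At ZT12 it belonged to Klf15, a regulator of lipid use in muscle, at a difference of -0.39.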

How the data were processed

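Polyadenylated RNA of gastrocnemius was sequenced from 12 libraries with an unstranded kit, per the labels' protocols. Per the submitters' processing notes, HOMER 4.11.1, STAR, DESeq2 and bcl2fastq were used, with mm10. The authors deposited TPM per gene for 10475 genes, each with at least 1 TPM in WT ZT0 replicate 1. The authors also deposited log2 fold changes, p-values and transcript lengths for each time, per the file headers; their per-library values are headed FPKM but lie on a log2 scale and were not tested. Here limma 3.58.1 (trend, R 4.3.3) was fitted to log2(TPM + 1) for the 10415 genes that reached 1 TPM in 3 or more libraries: 4 group means for single contrasts, and an additive model for genotype or time over both. Calls needed a Benjamini-Hochberg adjusted p under 0.05. The plan assumed counts as a possibility; TPM took its written fallback. Whole reads were recovered from TPM and length (98.4% to 98.7% of values within 0.1 read of whole) for voom. The fit was tested on simulated data. The members and lists were chosen with earlier results of these data known. Genes given in every library were those of the 5 smallest p per contrast and the highest of each step; other pathway genes named were among the smallest p. Alternatives were scaling, filters, pseudocounts, replicate block, voom and each library left out. Promoters came from RefSeq, and overlaps from GENCODE M21.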

Additional observations from a re-analysis of the deposited data

How the results depend on the processing

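The number of the 41 genes called was 0 for TG against WT at ZT0, at ZT12 and over both times, for time within each genotype and for the interaction under every alternative run. For time over both genotypes it was 3 after median-of-ratios scaling, where 234 of all tested genes were called. It was 2 with voom, where 217 were (2.08%), and 0 to 2 when leaving out 1 library, where 70 to 160 were. It was 1 with a 5 TPM filter and 1 with the replicate number as a block, whose all-gene counts are not given here. Mlycd was among those called in each of these settings that made a call, except without TG ZT12 replicate 3, where Fabp3 was. Without both libraries of extreme scaling (WT ZT0 replicate 2 and TG ZT12 replicate 1), the number of the 41 called was 5, where 464 of all tested genes were. That alternative was chosen after the data were seen.

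Over all genes, calls for time over both genotypes numbered 234 with median-of-ratios scaling, 217 with voom, 464 without the extreme libraries, 24 with the red cell level as a covariate and 70 to 160 leaving out 1 library, against 106. Within TG they were 31, 28, 71, 5 and 6 to 21, against 16, and within WT 55, 56, 72, 5 and 4 to 35, against 12, in the same order. For TG against WT they were 0 to 1 at ZT0 leaving out 1 library, and 2 at ZT12 without the extreme libraries. The cause was not tested.

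Of the differences followed gene by gene, mainly the 5 of smallest p in each comparison, signs turned for 4, all uncalled and of TG minus WT over both times: Acat1 (0.0210 after median-of-ratios scaling), and Ucp2 (0.000426), Ppard (0.0195) and Hsd17b4 (0.0342) without the extreme libraries. Over all 41 many more turned, since the number higher in TG over both times was 13, and 33 after median-of-ratios scaling. Across groups, 18 same-numbered pairs of libraries correlated between -0.35 and 0.29 (median 0.06), against a median of -0.02 for differently numbered pairs. Of the 12 libraries, 5 correlated best with a library of their own number. With 3 libraries a group, this check cannot settle whether the replicate numbers pair the libraries. The block changed no call of the 41 other than Mlycd (adjusted p = 0.0263). Acot2, Ehhadh and Cpt1a had as few as 51, 62 and 65 reads in a library, which limits their precision.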
